A study of Homo sapiens with 18 samples.

Results

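The 6 retinoic acid and retinoid X receptor genes, RARA, RARB, RARG, RXRA, RXRB and RXRG, and PML were followed in NB4 cells under all-trans retinoic acid (ATRA). These 7 genes were taken by name. A gene was measured by probe sets annotated to it alone, and by the brightest of them over 18 arrays where there were several. This gave a value for 6 of the 7 genes, among 18417 genes that could be measured in this way on an array of 33297 probe sets. RARA had no such probe set. Its 1 probe set was annotated to RARA and BCOR together and is described apart from the others.

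NB4 is an established line, grown from a human acute promyelocytic leukemia. Total RNA was hybridised to Affymetrix whole-transcript gene arrays from 6 groups of 3 biological replicates. Wild-type cells had no treatment or were given ATRA at 1 µM for 48 h or for 72 h, and cells labelled TG2 knockout were handled in the same 3 ways. TG2 is the product of TGM2, an enzyme that crosslinks proteins. The sample codes of the modified line carry the letters KD. How it was made, and whether it is a single clone, is not given in the sources used here. All arrays come from the same parental line, and the untreated arrays of a genotype serve as the control of both ATRA times.

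Retinoic acid receptors (RARs) bind ATRA and act on DNA as pairs with a retinoid X receptor (RXR). Without ligand such a pair holds a corepressor complex at its target genes, and ligand exchanges it for coactivators. RXRs also pair with many other nuclear receptors, and rexinoids are the ligands that act on the RXR side. In acute promyelocytic leukemia a chromosome translocation joins PML, which organises the PML nuclear bodies, to RARA. The fusion protein represses RAR targets until a high dose of ATRA releases it. NB4 cells carry this fusion, so the signal of a PML or RARA probe set here can hold normal and fusion transcripts together.

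The best known binding element of an RAR-RXR pair is a direct repeat of a 6-base half-site with 5 bases between the copies, called DR5. The promoter of the shorter RARB transcripts is a textbook example. Promoter windows of the 250 bases before a transcript start were read from RefSeq (GRCh38.p14) for 6 of the 7 genes, 13 windows in all. Both strands were searched for direct repeats of 4 half-site forms, the consensus AGGTCA, its variant AGTTCA, the form GGGTCA and the form GGTTCA, in any pairing. A DR5 stood in 26 of 35116 RefSeq windows (0.074%) and in those of 24 of 27305 genes (0.0879%). Among the receptor windows it stood in 1 of 13, one of 4 windows of RARB. This window lies at chr3:25428013-25428262 on the plus strand, and the DR5 at chr3:25428210-25428226, from -53 to -37 relative to the start. It is printed whole because RARB was the receptor gene that rose in every ATRA group. Capitals mark the 2 half-sites of the DR5. The window holds 3 half-sites of these forms in all, and the one outside the repeat is in lower case. Both half-sites of this textbook DR5 are among the 4 forms searched. The match was thus fixed in advance and is no finding of the search.

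RARB promoter window: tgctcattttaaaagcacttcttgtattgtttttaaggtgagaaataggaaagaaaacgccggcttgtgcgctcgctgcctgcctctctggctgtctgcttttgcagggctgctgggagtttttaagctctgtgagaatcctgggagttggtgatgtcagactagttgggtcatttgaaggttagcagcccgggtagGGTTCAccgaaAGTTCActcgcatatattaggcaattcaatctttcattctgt

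Repeats with a spacer of 1 base (DR1, in 0.0968% of all windows) or of 2 bases (DR2, in 0.0313%) were in none of the 13 receptor windows. The search counts these letters only, and no binding was measured.

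The library labels were first set against TGM2. Without ATRA its mean log2 signal was 6.43 in the wild-type and 6.39 in the knockout line. It was 12.27 and 10.95 at 48 h, and 12.37 and 11.24 at 72 h. The difference between knockout and wild-type cells was -1.31 at 48 h and -1.13 at 72 h (limma, Benjamini-Hochberg adjusted p = 0.0345 and 0.0267). Both calls hung on the setting. The difference stayed between -1.48 and -1.12 at 48 h and between -1.31 and -0.94 at 72 h over 15 alternatives, but the call was lost in 8 and in 7 of them. With only the compared groups in the fit, adjusted p was 0.997 and 0.313, and 0 of all probe sets were called at either time. TGM2 transcript was thus lower, but it rose with ATRA in the libraries labelled TG2 knockout too, and TG2 protein was not measured. They are called knockout cells here after their label. Of 6 promyelocyte markers measured, MPO (12.08 to 12.72 over the 18 arrays) and PRTN3 (11.85 to 12.68) were the brightest, ELANE was at 7.33 to 7.82, and CTSG ran from 6.72 to 10.29 and fell by 2.48 in wild-type cells and fell by 2.93 in knockout cells at 72 h. Of these 6 promyelocyte markers, 3 were higher and 2 lower in wild-type cells at 72 h (median -0.01), where 23.1% and 21% of all probe sets were. With median centring 2 were higher and 2 lower there. In knockout cells 1 was higher and 2 were lower (median -0.08), where 22.8% and 19.2% of all probe sets were. CTSG and MPO were the lower ones in both lines. AZU1 rose by 1.13 in wild-type and 0.84 in knockout cells (adjusted p = 7.63e-06 and 0.000161). At 72 h PRTN3 and ELANE rose by 0.42 and 0.34 in wild-type cells. They differed by 0.20 and 0.14 in knockout cells (adjusted p = 0.324 and 0.272). PRTN3 did rise in knockout cells at 48 h (0.42, adjusted p = 0.0396). Of 4 mature neutrophil markers, 3 rose with ATRA in each line at both times, where 19.3% to 23.1% of all probe sets were higher. The rise was 2.32 (ITGAM), 2.33 (CSF3R) and 2.10 (CXCR2) in wild-type cells at 72 h. The mean of the 4 was 6.46 to 6.77 on untreated and 7.73 to 8.39 on ATRA arrays, so it moved with the receptor changes, and its part in them was not tested. Of 4 monocyte and macrophage markers, CSF1R (5.97 to 7.52) and CD14 (5.53 to 6.63) were of middling signal and CD163 and MRC1 were dim. At 72 h 3 of these 4 were higher in wild-type and 1 in knockout cells, where 23.1% and 22.8% of all probe sets were. Of 3 lymphocyte markers, CD3E (5.25 to 6.16) was the highest and MS4A1 (3.87 to 4.78) the lowest, and 1 was higher in wild-type cells at 72 h. This lymphocyte count and the knockout counts of the promyelocyte markers and of the monocyte and macrophage markers lie near the shares for all probe sets. Replicates correlated across probe sets with r of 0.9943 to 0.9969 in the untreated groups and 0.9656 to 0.9788 in the ATRA groups. On the first principal component (57.1% of the variance) wild-type 48 h replicate 1 lay nearest the untreated arrays (17.5, against -89.9 to -84.7). In these bulk samples, fewer cells of a kind and less RNA per cell cannot be told apart.

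ATRA changed a large share of all transcripts, which sets the scale for the receptors. In wild-type cells at 48 h, 2 of the 6 measured genes passed the test, where 38.9% of all probe sets did (19.3% higher and 19.6% lower). These were RARB, higher, and RXRA, lower. At 72 h it was 4, with RARB, RARG and PML higher and RXRA lower, against 44% of probe sets (23.1% higher and 21% lower). In knockout cells 3 passed at 48 h, RARB and RARG higher and RXRA lower, against 41.4% (21.5% higher and 19.9% lower). At 72 h 2 passed, RARB higher and RXRA lower, against 42% (22.8% higher and 19.2% lower). Groups did not overlap for 3, 5, 4 and 3 of the 6 genes in these 4 comparisons, against 58.1%, 62.3%, 57.5% and 57.8% of all probe sets. With 6 genes these counts lie near the shares for all probe sets, so the number of changed receptor genes is not a result about them. The median log2 difference of the 6 genes was 0.27 at 48 h and 0.32 at 72 h in wild-type cells, and 0.21 and 0.15 in knockout cells. Over all probe sets it was 0.10, 0.12, 0.14 and 0.13. The genes moved in different directions and by very different amounts, as the plot of their values by array shows.

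**Figure D1:**
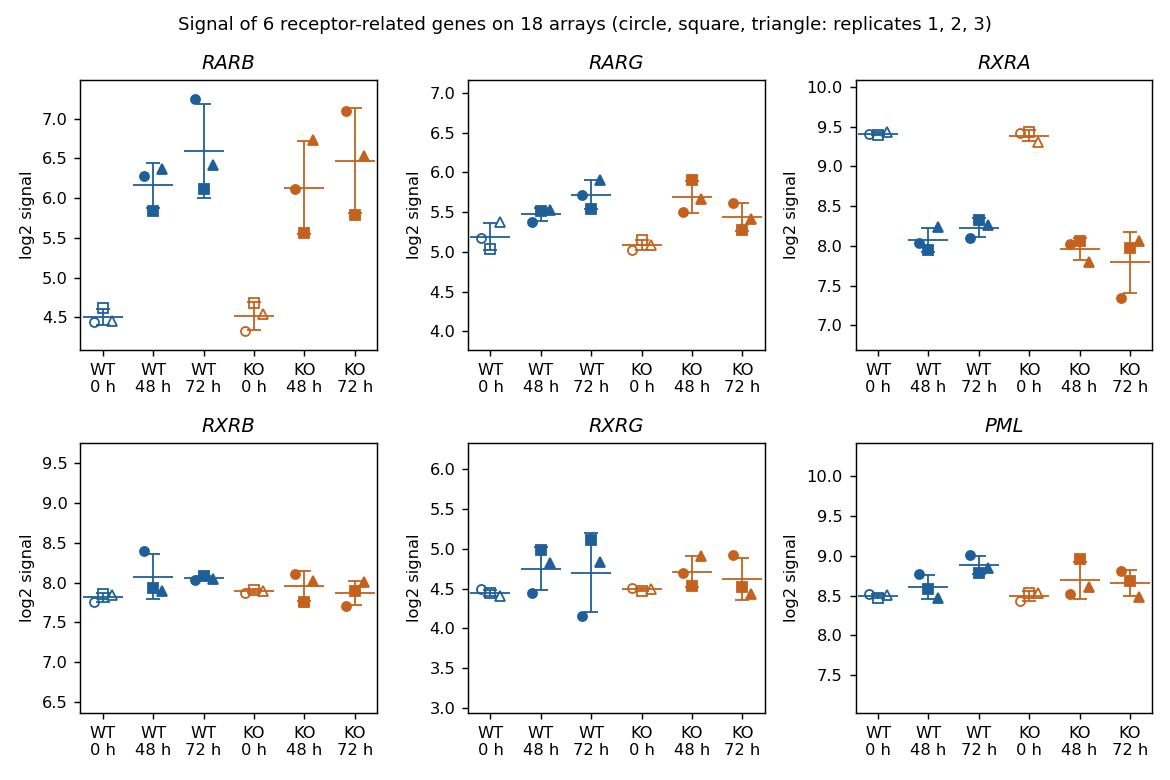
Log2 signal (vertical axes, the same span in each panel) of the 6 measured genes in the 6 groups on the horizontal axes. Symbols mark replicates 1, 2 and 3, and bars the group mean ± SD (n = 3). The ATRA arrays of RARB (5.56 to 7.25) lie above all untreated arrays (4.33 to 4.68), and those of RXRA (7.35 to 8.33) lie below all untreated arrays (9.31 to 9.43).

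RARB encodes RAR beta, the RAR whose own gene is a direct target of retinoid signalling in many cell types. In untreated cells its log2 signal was 4.44, 4.62 and 4.45 in the wild-type replicates and 4.33, 4.68 and 4.54 in the knockout replicates. After 48 h of ATRA it was 6.28, 5.84 and 6.37 in wild-type and 6.11, 5.56 and 6.73 in knockout cells. After 72 h it was 7.25, 6.11 and 6.42 in wild-type and 7.10, 5.79 and 6.53 in knockout cells. No ATRA array overlapped an untreated one. Replicate 2 was the lowest array in all 4 ATRA groups, and the highest was replicate 1 at 72 h and replicate 3 at 48 h in both genotypes.

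RARB thus rose in all 4 ATRA comparisons. In wild-type cells it was 3.16-fold higher at 48 h (95% interval 1.94 to 5.15, adjusted p = 0.000952). At 72 h it was 4.26-fold higher (2.61 to 6.94, adjusted p = 0.000112). In knockout cells the increase was 3.07-fold at 48 h (1.88 to 5.0, adjusted p = 0.00115) and 3.88-fold at 72 h (2.38 to 6.33, adjusted p = 0.000239). The mean rose from the 22 percentile of all probe sets in untreated wild-type cells to the 57.2 percentile at 72 h, so a dim probe set became one of middling brightness. From 48 to 72 h RARB differed by 0.43 in wild-type and 0.34 in knockout cells on the log2 scale, within the spread of the replicates (adjusted p = 0.932 and 0.784). In the order of the 6 group means, only the step from untreated knockout cells to knockout cells at 48 h separated neighbours (1.62, adjusted p = 0.00115). The 4 ATRA groups overlapped each other, and so did the 2 untreated ones.

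RARG encodes RAR gamma. In wild-type cells its log2 signal was 5.17, 5.03 and 5.37 untreated, 5.37, 5.51 and 5.53 at 48 h, and 5.71, 5.54 and 5.91 at 72 h. Knockout arrays were at 5.02, 5.15 and 5.09 untreated, 5.50, 5.90 and 5.66 at 48 h, and 5.62, 5.27 and 5.41 at 72 h. The wild-type 48 h arrays met the untreated ones at 5.37, while the other 3 ATRA groups lay above their untreated arrays. RARG rose by 0.53 ± 0.14 (SE) in wild-type cells at 72 h (1.44-fold, adjusted p = 0.0072) and by 0.60 ± 0.14 in knockout cells at 48 h (1.52-fold, adjusted p = 0.00346). It missed the threshold in wild-type cells at 48 h (0.28, adjusted p = 0.133) and in knockout cells at 72 h (0.35, adjusted p = 0.0624). The last of these passed without knockout 72 h replicate 2, the lowest array of its group (0.43, adjusted p = 0.0399). RARG stayed between the 31.8 and 41.3 percentile of all probe sets, and every neighbouring pair in the order of its group means overlapped.

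RARA encodes RAR alpha, the receptor joined to PML in this leukemia. The probe set annotated to RARA and BCOR together read 8.04, 8.09 and 8.06 in untreated wild-type cells, 8.02, 8.07 and 7.94 at 48 h, and 7.98, 7.96 and 8.03 at 72 h. Knockout arrays read 8.12, 8.02 and 8.04 untreated, 7.56, 8.12 and 7.65 at 48 h, and 7.75, 7.62 and 8.02 at 72 h. BCOR is a transcriptional corepressor, and its share of this signal is unknown. Under ATRA the probe set differed by -0.05 and -0.07 in wild-type cells (48 and 72 h, adjusted p = 0.779 and 0.678). In knockout cells it differed by -0.28 and -0.26 (adjusted p = 0.101 and 0.124), where 2 arrays of each ATRA group lay below every wild-type array. BCOR's own probe set differed by -0.26 and -0.18 in wild-type cells and by -0.11 and 0.05 in knockout cells, and did not pass (adjusted p = 0.150, 0.306, 0.542 and 0.805). No change of the shared probe set was detectable, and none can be assigned to RARA.

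RXRA encodes RXR alpha, the main RXR partner of RARs in myeloid cells. Untreated wild-type arrays read 9.41, 9.39 and 9.43 and untreated knockout arrays 9.42, 9.43 and 9.31. At 48 h the log2 signal was 8.04, 7.95 and 8.24 in wild-type and 8.02, 8.06 and 7.80 in knockout cells. At 72 h it was 8.10, 8.33 and 8.26 in wild-type and 7.35, 7.97 and 8.06 in knockout cells. Every ATRA array lay below every untreated array, with a gap of about 1 on the log2 scale. The lowest was knockout 72 h replicate 1.

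RXRA fell by 1.33 ± 0.15 (SE) at 48 h in wild-type cells, 2.52-fold (adjusted p = 5.08e-06). At 72 h it fell by 1.18 ± 0.15, 2.27-fold (adjusted p = 1.43e-05). Knockout levels fell by 1.43 ± 0.15 at 48 h, 2.69-fold (adjusted p = 2.76e-06), and fell by 1.59 ± 0.15 at 72 h, 3.02-fold (adjusted p = 9.54e-07). Its mean moved between the 87.3 and the 73.7 percentile of all probe sets. The 2 untreated groups overlapped, and the 4 ATRA groups overlapped in turn. The break in the order lay between untreated knockout and wild-type 72 h cells (1.16, adjusted p = 1.73e-05).

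RXRB encodes RXR beta, a widely expressed RXR. In wild-type cells it read 7.75, 7.86 and 7.84 untreated, 8.40, 7.93 and 7.90 at 48 h, and 8.03, 8.08 and 8.05 at 72 h. Knockout cells gave 7.87, 7.91 and 7.90 untreated, 8.11, 7.75 and 8.02 at 48 h, and 7.71, 7.89 and 8.01 at 72 h. Both wild-type ATRA groups lay above their untreated arrays, but the differences of 0.26 and 0.24 did not pass (adjusted p = 0.136 and 0.162). The knockout ATRA groups overlapped their untreated arrays, with differences of 0.07 and -0.02 (adjusted p = 0.710 and 0.901). Of its 3 probe sets, the other two differed by 0.21 and 0.19 in wild-type cells at 48 h and by 0.20 and 0.06 at 72 h. Without wild-type 48 h replicate 1 the difference at 48 h was 0.098 (adjusted p = 0.539). The knockout 95% intervals, -0.22 to 0.35 and -0.31 to 0.26, assume a common spread and exclude a change as large as that of RXRA. With quantile normalization between arrays the wild-type differences became 0.44 and 0.46 and passed (adjusted p = 0.0109 and 0.0080), so the call on RXRB in wild-type cells rests on the scaling.

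RXRG encodes RXR gamma, an RXR best known from muscle and nervous tissue. Its probe set was dim throughout, between the 20.8 and 24.1 percentile. Wild-type arrays read 4.49, 4.44 and 4.41 untreated, 4.45, 4.98 and 4.82 at 48 h, and 4.15, 5.11 and 4.84 at 72 h. Knockout arrays read 4.51, 4.47 and 4.49 untreated, 4.70, 4.53 and 4.91 at 48 h, and 4.92, 4.52 and 4.43 at 72 h. The knockout 48 h arrays lay just above their untreated arrays. No ATRA difference passed (0.30, 0.25, 0.22 and 0.13, adjusted p = 0.276 to 0.638), while the ATRA arrays spread far more widely than the untreated ones. Without wild-type 72 h replicate 1, the lowest array of all, the wild-type difference at 72 h was 0.53 (adjusted p = 0.0349). No detection call was used, so whether the RXRG transcript was present is unknown.

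**Figure D2:**
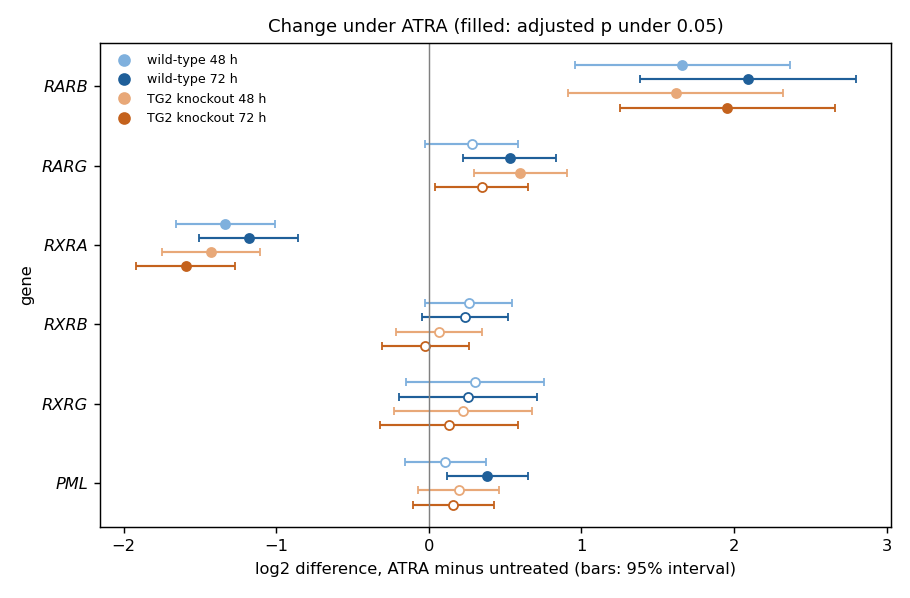
Log2 difference between ATRA and untreated cells (horizontal axis) for each of the 6 genes, by genotype and time, with 95% intervals from the fit over all 18 arrays. RARB lies at 1.62 to 2.09 and RXRA at -1.59 to -1.18, and the other 4 genes lie between -0.02 and 0.60.

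PML encodes the scaffold of PML nuclear bodies and is itself an interferon-stimulated gene. In wild-type cells its log2 signal was 8.52, 8.47 and 8.51 untreated, 8.77, 8.58 and 8.47 at 48 h, and 9.01, 8.79 and 8.85 at 72 h. Knockout cells were at 8.43, 8.54 and 8.53 untreated, 8.52, 8.96 and 8.61 at 48 h, and 8.81, 8.68 and 8.49 at 72 h. The wild-type 72 h arrays lay above all untreated arrays, and the other 3 ATRA groups overlapped them. PML rose by 0.38 ± 0.12 (SE) in wild-type cells at 72 h, 1.30-fold (adjusted p = 0.0207). The other ATRA differences were 0.11 in wild-type cells at 48 h (adjusted p = 0.525) and 0.20 and 0.16 in knockout cells (adjusted p = 0.217 and 0.315). The call at 72 h was lost without wild-type 72 h replicate 1 (0.32, adjusted p = 0.0786), without untreated wild-type replicate 2 (adjusted p = 0.0617) or without untreated wild-type replicate 3 (adjusted p = 0.0515). With quantile normalization all 4 differences passed, at 0.37, 0.67, 0.48 and 0.43. PML thus rose in 1 or in all 4 comparisons, depending on the scaling. For PML, RXRB and RXRG every neighbouring pair in the order of the group means overlapped.

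Knockout and wild-type cells were compared next, since the series was made to set the ATRA program of the TG2 line beside that of the parent. None of the 6 genes passed untreated, at 48 h or at 72 h (limma; 0, 0 and 1 gene at an unadjusted p under 0.05). Over all probe sets 0.00601%, 0.021% and 0.0961% were called, so few genes of any kind passed. The intervals bound how different the lines could be if all 6 groups share a common spread, as the fit assumed. The RARB SD was 0.10 and 0.18 untreated and 0.59 and 0.66 at 72 h (wild-type and knockout). Intervals under ATRA may therefore be too narrow. For RARB the log2 difference was 0.01 untreated (95% interval -0.69 to 0.72), -0.03 at 48 h (-0.74 to 0.68) and -0.12 at 72 h (-0.83 to 0.59). Under that assumption the lowest of these bounds, -0.83, is smaller in size than the rise of RARB with ATRA in either line. For PML it was 0.00 untreated, 0.09 at 48 h (-0.17 to 0.35) and -0.22 at 72 h (-0.49 to 0.04).

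RXRA at 72 h was the 1 gene with an unadjusted p under 0.05. The 3 knockout arrays (7.35, 7.97 and 8.06) lay below the 3 wild-type arrays (8.10, 8.33 and 8.26). The difference was -0.44 ± 0.15 (SE; 95% interval -0.76 to -0.11, unadjusted p = 0.0111, adjusted p = 0.293). Without knockout 72 h replicate 1 it shrank to -0.22. At 48 h it was -0.12 (adjusted p = 0.959), and untreated it was -0.02. The difference between the RXRA responses of the lines at 72 h was -0.41 (-0.87 to 0.04, unadjusted p = 0.0728) and did not pass. These intervals rest on the common spread, while the RXRA SD differed between groups. It was 0.02 and 0.07 untreated and 0.12 and 0.39 at 72 h (wild-type and knockout), so the intervals may be too narrow.

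**Figure D3:**
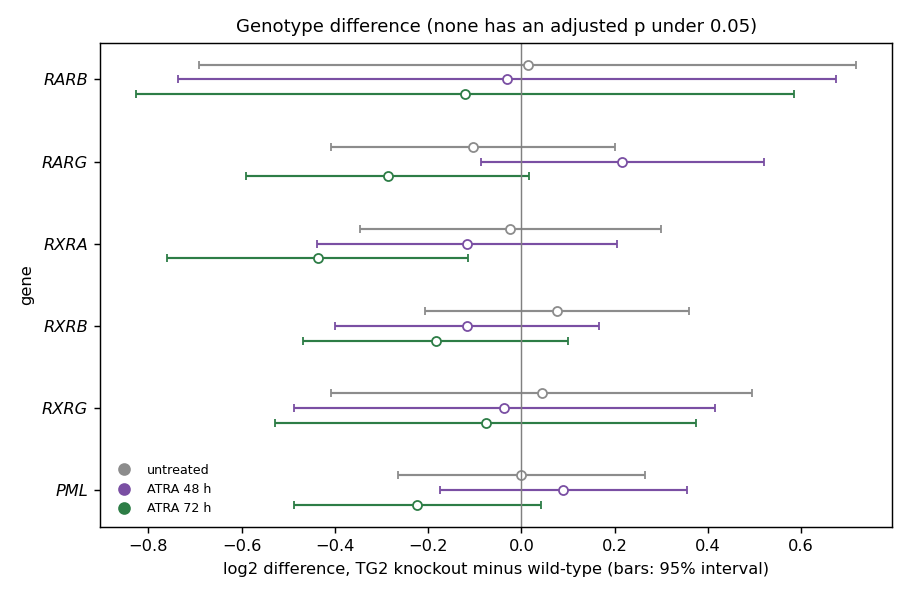
Log2 difference between TG2 knockout and wild-type cells (horizontal axis) for each of the 6 genes, untreated and at 48 and 72 h of ATRA, with 95% intervals. The intervals assume a common spread over the 6 groups. No gene passed the test at any time, and the RXRA difference at 72 h (-0.44) is the only one whose interval leaves out 0.

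The other genes differed by less between the lines. RARG differed by -0.10 untreated, 0.22 at 48 h (adjusted p = 0.899) and -0.29 at 72 h (adjusted p = 0.479), so its sign turned between the times. RXRB differed by 0.08, -0.12 and -0.18 and RXRG by 0.04, -0.04 and -0.08. For none of the 6 genes did the difference between the ATRA responses of the lines pass at 48 or 72 h, where 0.003% and 0% of all probe sets were called (0 of the 6 had an unadjusted p under 0.05). Nor did any of the 6 pass between 48 and 72 h of ATRA in either line, where 0% of probe sets were called, though 1952 probe sets in wild-type and 2732 in knockout cells had an unadjusted p under 0.05. The 1 such gene among the 6 was PML in wild-type cells (0.28, unadjusted p = 0.0416, adjusted p = 0.838).

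The genes whose 18 values ran closest to those of RARB and RXRA were found by the root-mean-square difference of values centred on each gene's mean. Nearest to RARB was ROR2, a receptor tyrosine kinase for WNT5A, with a difference of 0.191. Its group means were 5.94, 7.78 and 8.03 in wild-type and 6.0, 7.56 and 7.91 in knockout cells (untreated, 48 h and 72 h). APBB1IP, an adaptor in integrin activation, followed at 0.246, and ABCA1, a cholesterol exporter, at 0.272. Nearest to RXRA were MEA1 at 0.18, DNAJB5, a cochaperone, at 0.182, and CCNA1, cyclin A1, at 0.186. The group means of CCNA1 were 6.64, 5.39 and 5.57 in wild-type and 6.52, 5.29 and 5.20 in knockout cells. These are likenesses over 18 arrays of 6 groups, most of which lies in the step from untreated to ATRA cells.

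The groups of genes around the receptors are read against all probe sets, whose median difference at 72 h was 0.12 in wild-type and 0.13 in knockout cells. Of 10 other receptors that pair with RXR, 2 were higher and 3 lower in wild-type cells at 72 h (all probe sets: 23.1% and 21%). In knockout cells 1 was higher and 3 were lower (all probe sets: 22.8% and 19.2%). These counts lie near the background, as do the medians of 0.18 and 0.09. PPARG, a regulator of lipid storage, fell by 1.06 and 0.88 at 72 h (wild-type and knockout; adjusted p = 0.000317 and 0.00165). THRA, a thyroid hormone receptor, fell by 1.02 and 1.04, and VDR, the vitamin D receptor, fell by 0.37 and 0.78. PPARD, a sensor of fatty acids, rose by 0.66 in wild-type cells and differed by 0.28 in knockout cells (adjusted p = 0.000884 and 0.10).

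Corepressor and coactivator genes were both mostly lower. Of 6 corepressor genes measured, 5 were lower in wild-type and 4 in knockout cells at 72 h, and none was higher (median -0.59 and -0.45), where 21% and 19.2% of all probe sets were lower. Among brighter probe sets lower calls were more common, with 5912 of 9603 calls in wild-type cells at 72 h. The corepressor and coactivator lists are both bright, with means of 8.57 to 8.63 and 9.02 to 9.04 on untreated wild-type arrays. The shares over all probe sets thus make their excess of lower calls look larger than it is. TBL1X, a core subunit of the NCOR complexes, fell by 2.20 and 1.82 (adjusted p = 0.000176 and 0.00101). HDAC3, the deacetylase of these complexes, fell by 0.76 and 0.53, and SIN3A, a scaffold of another deacetylase complex, fell by 0.77 and 0.95. Of 9 coactivator genes, 6 were lower in each line and none was higher (median -0.77 and -0.60), against the same background. CARM1, an arginine methyltransferase, fell by 1.52 and 1.28, and MED1, the Mediator subunit that contacts nuclear receptors, fell by 1.43 and 1.19. NCOA1, a p160 coactivator, fell by 0.98 and 0.87, and EP300, an acetyltransferase, fell by 0.89 and 0.58. With quantile normalization the corepressor counts were 3 and 3 and the coactivator counts 6 and 3, again with none higher.

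Among the partners of PML in nuclear bodies and SUMO conjugation, 1 of 9 measured was higher and 3 were lower in wild-type cells at 72 h. In knockout cells 4 were lower (median 0.00 and -0.21). Over all probe sets 23.1% were higher and 21% lower in wild-type cells, and 22.8% and 19.2% in knockout cells. This list is bright too, with means of 8.45 to 8.51 on untreated wild-type arrays. The shares over all probe sets thus make its excess of lower calls look larger than it is, as for the corepressors. PIAS1, a SUMO ligase, fell by 0.86 and 0.97, and DAXX, a histone chaperone of the bodies, fell by 0.44 and 0.64. RNF4, the ubiquitin ligase that marks SUMO-modified PML for destruction, fell by 0.29 and 0.46. HIPK2, a kinase found in the bodies, rose by 0.84 in wild-type cells and differed by 0.44 in knockout cells (adjusted p = 0.0031 and 0.0915). With quantile normalization 2 were higher and 1 lower in wild-type cells, and 1 was higher and 2 lower in knockout cells, so the balance of this group rests on the scaling.

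Interferon-stimulated genes, the class PML belongs to, are set beside it here. In wild-type cells 11 of 13 measured were higher at 72 h, and in knockout cells 6 were (median 1.47 and 0.42), against 23.1% and 22.8% of all probe sets. OAS3, an antiviral enzyme, rose by 3.18 and 1.68, TRIM22 by 2.67 and 1.95, and the transcription factor IRF1 by 2.60 and 2.34. OAS1 rose by 2.40 in wild-type cells and differed by 0.74 in knockout cells (adjusted p = 0.000504 and 0.200). The mean of the 13 genes was 6.38 to 6.44 on untreated wild-type arrays and 8.36, 7.33 and 8.16 at 72 h, where PML read 9.01, 8.79 and 8.85. On knockout arrays it was 6.35 to 6.43 untreated and 7.44, 6.90 and 7.20 at 72 h, where PML read 8.81, 8.68 and 8.49. The median difference between the lines at 72 h was -0.54, but 0 of the 13 passed limma's test (8 had an unadjusted p under 0.05). For the difference of the responses at 72 h 0 passed as well (5 at an unadjusted p under 0.05). The part of interferon-stimulated expression in the PML values was not tested.

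**Figure D4:**
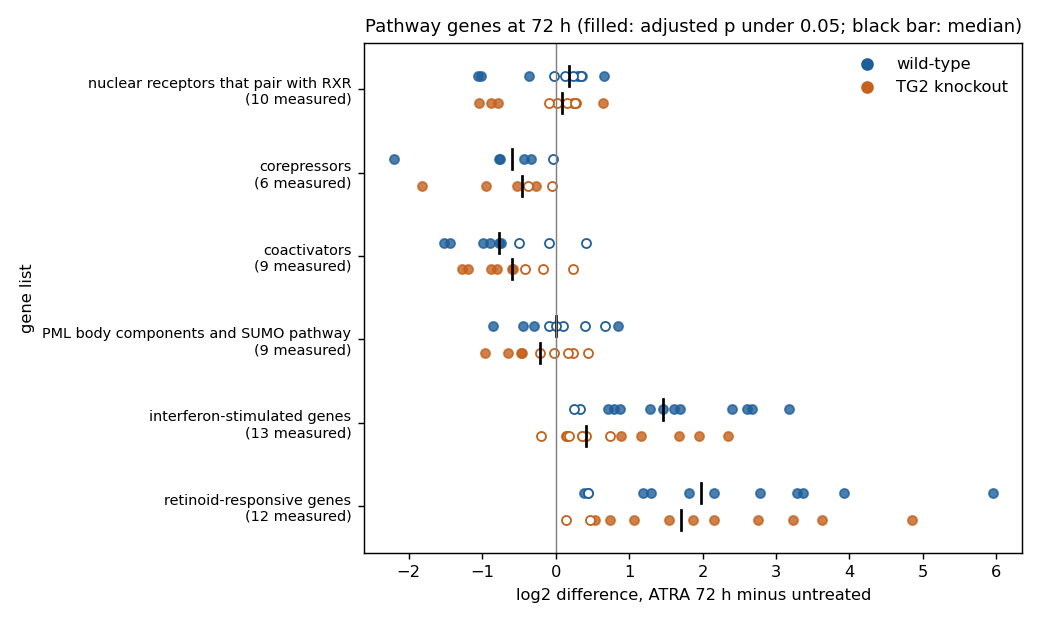
Log2 difference between 72 h of ATRA and untreated cells (horizontal axis) for the genes of 6 groups around the receptors (vertical axis), in wild-type and TG2 knockout cells. Each point is a gene, filled where it passed the test, and black bars are medians, which run from -0.77 (coactivators, wild-type) to 1.98 (retinoid-responsive genes, wild-type).

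Genes listed here as retinoid-responsive rose widely, and the part of the receptors in each rise was not tested. Of 12 measured, 11 were higher in wild-type and 10 in knockout cells at 72 h, and none was lower (median 1.98 and 1.71), where 23.1% and 22.8% of all probe sets were higher. With quantile normalization 9 were higher in each line. TGM2 rose by 5.95 in wild-type and 4.85 in knockout cells. DHRS3, a retinal reductase, rose by 3.92 and 3.62, ASB2, a ubiquitin ligase subunit, by 3.36 and 2.75, and PRAM1, an adaptor first found in promyelocytic leukemia, by 3.28 and 3.24. Some of these genes are known from ATRA-treated promyelocytic leukemia cells, so their direction is no independent evidence. Between the lines at 72 h, TGM2 and TNFAIP2 were lower in knockout cells (for TNFAIP2 a log2 difference of -0.89, adjusted p = 0.00408). The TGM2 call was lost in 7 of 15 alternatives and the TNFAIP2 call in 1 (its difference stayed between -0.975 and -0.845). That 1 was the fit on the compared groups only (adjusted p = 0.313 for TGM2 and 0.234 for TNFAIP2). This fit called 0 of all probe sets, so the loss there is not particular to these genes.

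The genes whose promoter window held a DR5 were then followed as a set of 24. The set was chosen by sequence, but the place of RARB in it was fixed in advance. The rise of RARB was already known as well, so counts that include it are no test of the element. Only 10 of them had a probe set of their own. In wild-type cells at 72 h, 4 of the 10 were higher and 2 lower (median 0.35), where 23.1% of all probe sets were higher and 21% lower. In knockout cells it was 3 and 2 (median 0.26), where 22.8% and 19.2% were. RARB, counted among the higher genes in both lines, had the largest rise of the 10. CYP26A1, the enzyme that degrades retinoic acid, was the only one of them that also stood on the list of retinoid-responsive genes used here. Its DR5 lies at chr10:93073803-93073819 on the minus strand, from -90 to -74. The elements of the genes that passed in wild-type cells at 72 h are printed to compare their half-sites with those of RARB.

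RARB: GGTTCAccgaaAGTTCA
CYP26A1: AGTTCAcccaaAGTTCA
BATF2: AGTTCAtgtgaGGGTCA
PRSS27: GGTTCAgggctAGGTCA
HROB: GGTTCAgcactGGTTCA
PHF8: AGTTCAaatacAGTTCA

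CYP26A1 read 5.48, 5.24 and 5.35 in untreated wild-type cells, 6.46, 6.70 and 6.52 at 48 h, and 6.55, 6.81 and 6.60 at 72 h. In knockout cells it read 5.57, 5.43 and 5.37 untreated, 6.23, 6.40 and 6.07 at 48 h, and 6.29, 6.22 and 6.09 at 72 h. No ATRA array overlapped an untreated one. CYP26A1 rose by 1.30 in wild-type and 0.74 in knockout cells at 72 h (adjusted p = 7.83e-07 and 0.000219). BATF2, a transcription factor of the AP-1 family, rose by 1.46 and 0.89 (adjusted p = 0.000148 and 0.00751). PRSS27, a serine protease, rose by 0.37 in wild-type cells and differed by 0.32 in knockout cells (adjusted p = 0.0374 and 0.0671). HROB, a factor in DNA repair, fell by 0.98 and 1.29, and PHF8, a histone demethylase, fell by 0.62 and 0.58. Among the 10, a DR5 of these letters thus stood before genes that rose, genes that fell and genes with no detectable change.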

How the data were processed

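Total RNA of 18 NB4 samples (3 biological replicates in each of 6 groups) was labelled with the WT Expression kit from 300 ng and measured on 1 array each, per the labels' protocols. The deposited table holds 1 log2 value per probe set and array. That the scale is log2 was read from the values (0.73 to 13.56, array medians 6.12 to 6.26) and is not stated. How the authors corrected, normalized and summarised the probes is not given in the sources used here. Of 33297 probe sets, 19460 are annotated to 1 gene, 1754 to several and 12083 to none. Gene names come from GEO's platform annotation.

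No further normalization was applied. Limma 3.58.1 (R 4.3.3) fitted the 6 group means over the 18 arrays (eBayes with trend), with a common spread assumed, and the script was tested on simulated data. Adjusted p is the 2-sided Benjamini-Hochberg value over all 33297 probe sets of a comparison, called under 0.05. "Higher", "lower", "rose" and "fell" refer to such calls. The median SD between arrays was 0.0757 to 0.0985 in untreated and 0.215 to 0.243 in ATRA groups. The labels call the replicates biological, but give no date or batch and do not say whether they were separate cultures. The p-values measure the spread between these samples, whose sources are not stated. The number of arrays limits the precision, and no depth or detection call applies.

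The genes, the lists, the rule for named genes and the alternatives were chosen with earlier results of these data known. The rule takes the 7 genes, up to 4 called genes per list with the largest difference in wild-type cells at 72 h, and the 3 genes most like each member whose group means span at least 1. CCNA1 and the other likeness genes follow from it. The DR5 genes and TNFAIP2 fall outside it and were named after their values were seen. List genes that no probe set measured alone have no value here. Promoter windows and their coordinates are RefSeq's (GRCh38.p14).

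Whether replicate numbers pair the arrays was checked by correlating, over probe sets, how far arrays with the same number lay from the mean of their group. For knockout against wild-type cells r was 0.103 to 0.16 at 72 h, 0.089 to 0.196 at 48 h and -0.128 to -0.056 untreated. Only at 72 h did every pair pass 0.1. For ATRA against untreated cells r was -0.0397 to 0.0531. For 72 h against 48 h it was 0.095 to 0.186 in wild-type and -0.0274 to 0.0507 in knockout cells. Arrays with unlike numbers gave -0.126 to -0.00735 and -0.0934 to 0.104 there. For knockout against wild-type cells they gave -0.163 to 0.0296 at 72 h, -0.238 to 0.0936 at 48 h and -0.0412 to 0.0992 untreated. Alternatives were quantile normalization, median centring, filters on features, other eBayes settings, array weights, the replicate block, only the groups compared, other probe sets of RXRB, and leaving out each array. Counting the probe set shared by RARA and BCOR, and the alternatives for TGM2 and TNFAIP2, were added after seeing the data.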

Additional observations from a re-analysis of the deposited data

How the results depend on the processing

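Of 66 values (6 genes in 11 comparisons), 11 were called, and 10 of these held under every alternative that kept their probe set. PML in wild-type cells at 72 h was the exception. The filter to brighter probe sets dropped RARB and RARG, so it did not test their calls. No called value changed sign. Of the 55 others, 22 changed sign under some alternative and 7 passed under one, 5 of them with quantile normalization. The number of genes called in wild-type cells was 2 at 48 h and 4 at 72 h. It was 4 at 48 h with quantile normalization. With brighter probe sets only, which drops RARB, RARG and RXRG, it was 1 at 48 h and 2 at 72 h. In knockout cells that filter left 1 at 48 h (from 3) and 1 at 72 h (from 2).

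Leaving out each array in turn gave 2 to 2 genes called at 48 h and 3 to 4 at 72 h in wild-type cells, and 3 to 3 and 2 to 3 in knockout cells. For the genotype, time and response comparisons it gave 0 to 0. With the replicate number as a block no call on the 6 genes changed. At 72 h the pairing-adjusted difference of RXRA between the lines was -0.44 (adjusted p = 0.266), and that of RARB between ATRA and untreated wild-type cells was 2.09 (adjusted p = 5.89e-05).

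RXRB in wild-type cells at 72 h passed with only the compared groups in the fit (adjusted p = 0.0463). The probe set shared by RARA and BCOR passed in knockout cells at 48 h with median centring (-0.36, adjusted p = 0.0312) and without knockout 48 h replicate 2 (-0.46, adjusted p = 0.0058). At 72 h it passed without knockout 72 h replicate 3 (-0.38, adjusted p = 0.0488). The cause of these moves was not tested. With brighter probe sets only, the share of higher among all calls moved from 49.6% to 38.3% at 48 h and from 52.4% to 38.4% at 72 h in wild-type cells, and in knockout cells from 51.9% to 39.7% and from 54.3% to 37.6%. Comparing the untreated lines on their own 6 arrays called 284 probe sets, against 2 in the fit over all arrays. Signal over background is unknown, which limits the dim probe sets of RARB, RARG and RXRG most.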
